A study of Drosophila melanogaster with 6 samples.

Results

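Of 6 genes of the neuropil glia, the astrocyte-like and ensheathing glia of the fly brain, bdl rose in the heads of a pool of seizure-prone fly lines and the other 5 did not pass the test. The rise of bdl was small, and it no longer passed when any 1 array was left out. Over all array rows, 2.9% passed the same test. The 6 genes, alrm, wun2, axo, htl, Ntan1 and bdl, were taken because each is a marker or signalling gene of these glia and has an array row mapped to that gene symbol alone. They are 6 of 13346 genes named on the array, each with 1 row, and all 6 were measured and tested. The 3 pool arrays held an equal mixture of RNA of 7 genotypes. In 5 of these repo-GAL4 drove RNA interference against ATPalpha, comt, nrv2, COX7A or SesB, and in the other 2 it drove UAS-Dube3a or UAS-htt.12Q.FL. The 3 control arrays held RNA of flies with repo-GAL4 and an empty TRiP RNA interference vector, so the driver was common to every group. All flies were about 3 to 5 days old and raised at 25 °C, and each genotype gave 15 to 25 heads.

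The repo-GAL4 driver is active in nearly all glia, not in neuropil glia alone, and a pooled value averages lines that may differ from each other. The labels call the tissue brain, while the protocol homogenised whole heads, which also hold muscle, fat body, eye and cuticle. In such bulk RNA, fewer cells of a type and less RNA per cell cannot be told apart. No label states that arrays of 1 group stem from separate flies or RNA mixtures, so every p-value reflects array-to-array spread that may be purely technical.

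Neuropil glia lie in and around the synaptic neuropil. Astrocyte-like glia send branched processes among synapses and clear transmitter, while ensheathing glia wrap the neuropil and take up debris. Growth of astrocyte-like and ensheathing glia in the fly depends on Heartless, the fibroblast growth factor (FGF) receptor encoded by htl, and on its ligands Pyramus and Thisbe. Among the other 5 genes, alrm encodes a leucine-rich repeat protein whose regulatory region is widely used to drive transgenes in astrocyte-like glia. The axo gene encodes Axotactin, a secreted glial protein related to neurexins, and flies that lack it become paralysed at high temperature. The bdl gene encodes Borderless, a cell-surface protein of the immunoglobulin superfamily that acts with Turtle in the developing visual system. The wun2 gene encodes a lipid phosphate phosphatase of the Wunen family, known for its part in germ cell migration. Ntan1 is named for the mammalian N-terminal asparagine amidase, an enzyme of the N-degron pathway of protein breakdown.

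Values are log2 signals as deposited, with 1 unit for each doubling, and differences are pool minus control. Array medians lay between 5.53 and 5.63, and those of the pool were on average 0.03 above those of the control. Over all 16322 rows, 473 (2.9%) passed a Benjamini-Hochberg adjusted p of 0.05 in limma. Of these, 270 rows (1.65%) were higher and 203 rows (1.24%) lower in the pool. Centring the arrays on their medians gave a split of 219 higher and 249 lower. Values of the pool lay wholly to one side of the control in 3504 rows (21.5%). The smallest log2 difference that passed was 0.23, an unadjusted p was under 0.05 in 1885 of 13346 named genes, and the median standard error was 0.068. Counts of listed genes given below are to be set beside these shares.

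The rows of the 6 genes differ in brightness, which on an array does not rank the genes by abundance but bears on how well each was measured. The mean signal of alrm was brighter than 95.6% of all rows, that of Ntan1 than 93.3% and that of bdl than 92.9%. The axo row was brighter than 65.8% of rows and the wun2 row than 51.1%. The htl row, with a mean of 4.16, was brighter than only 21.0% of rows and lay below the lower quartile of 4.23. Its values are therefore close to the dim end of the array, and no detection call was available to set them against background.

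**Figure D1:**
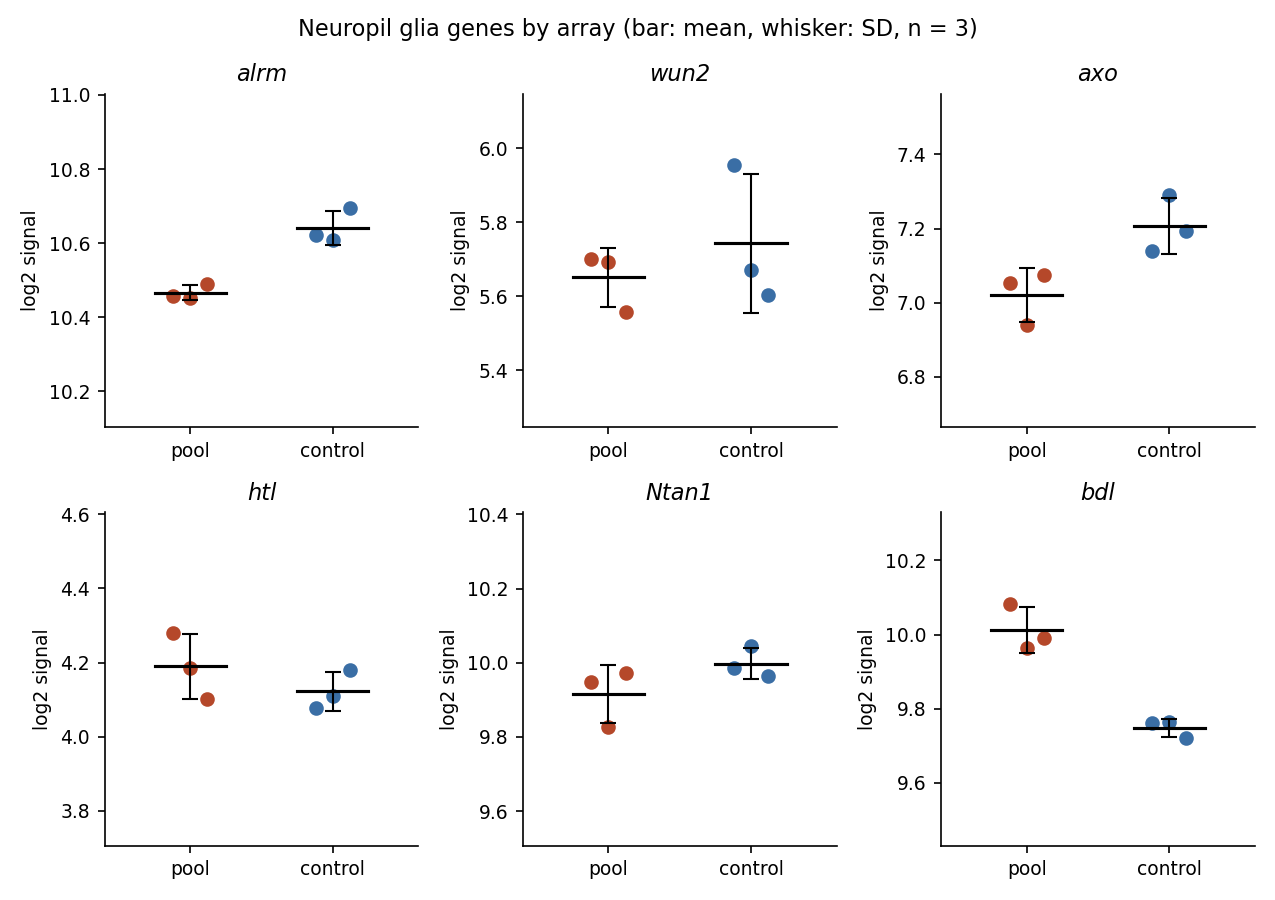
Log2 signal (vertical axis) of the 6 neuropil glia genes on the 3 pool arrays (left, red) and the 3 control arrays (right, blue), with the mean as a bar and the SD as a whisker. Every panel spans the same range of log2 units. The groups do not overlap for alrm and axo, which are lower in the pool, and for bdl, which is higher.

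The pool arrays read 10.08, 9.96 and 9.99 for bdl, against 9.76, 9.76 and 9.72 on the control arrays. Every pool value was above every control value, with a gap of 0.20 between the groups. The means were 10.01 ± 0.06 in the pool and 9.75 ± 0.02 in the control (SD, n = 3 each). The log2 difference of 0.26 (standard error 0.054) equals 1.20-fold, with a 95% interval of 1.10 to 1.31 (limma adjusted p = 0.0459). The change in bdl was larger than that of 94.3% of rows in absolute size, and its row ranked 462 of 16322 by p, near the end of the 473 that passed. One call among 6 genes compares with 2.9% of all rows. The difference was 0.23 to 0.29 with any 1 array left out, and the call was then lost each time (adjusted p 0.0968 to 0.147). It was also lost with arrays centred on their medians (difference 0.23, limma adjusted p = 0.0750) and with replicate number as a block (0.111). The call held after quantile normalization (limma adjusted p = 0.0440) and with a prior variance that follows signal and robust settings (0.00308).

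The pool arrays read 10.46, 10.45 and 10.49 for alrm, against 10.62, 10.61 and 10.69 on the control arrays. All pool values lay below all control values, and the gap of 0.12 was wider than the spread of either group. The means were 10.47 ± 0.02 in the pool and 10.64 ± 0.05 in the control (SD, n = 3 each). The log2 difference was -0.17 (standard error 0.051), or 0.886-fold with a 95% interval of 0.817 to 0.962. It did not pass over all rows (limma adjusted p = 0.143), with an unadjusted p of 0.00944 in the same fit. The within-group SD of alrm was smaller than that of 92.2% of rows. With a prior variance that follows signal and robust settings in limma, the same difference passed (adjusted p = 0.0176).

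Axotactin's gene axo gave 7.05, 6.94 and 7.07 on the pool arrays, against 7.14, 7.29 and 7.19 on the control arrays. The groups were again separate, by 0.06. The log2 difference was -0.19 (standard error 0.064), or 0.879-fold with a 95% interval of 0.794 to 0.974 (limma adjusted p = 0.216). Beside bdl, alrm and axo, no other of the 6 genes had separate groups, and 3 of 6 compares with 21.5% of all rows. An exact two-sided permutation test of each of these 3 differences gave p = 0.1, the smallest that 3 arrays against 3 can give.

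Ntan1, wun2 and htl had overlapping groups. Ntan1 read 9.95, 9.83 and 9.97 in the pool, against 9.98, 10.04 and 9.96 in the control, and its groups overlapped by less than 0.01. The log2 fold change of Ntan1 was -0.08, with a 95% interval of 0.859-fold to 1.04-fold (limma adjusted p = 0.598). The wun2 row read 5.70, 5.69 and 5.56 in the pool, against 5.95, 5.67 and 5.60 in the control. Control replicate 1 stood apart from the other 5 arrays, and wun2 was the noisiest of the 6 genes, with a within-group SD larger than that of 84.4% of rows. Its log2 fold change of -0.09 (95% interval 0.804-fold to 1.095-fold, limma adjusted p = 0.738) became 0.01 without that array. The receptor gene htl read 4.28, 4.19 and 4.10 in the pool, against 4.08, 4.11 and 4.18 in the control. Its log2 fold change of 0.07 had a 95% interval of 0.947-fold to 1.16-fold (limma adjusted p = 0.700). These intervals bound the differences and do not show that the genes were equal in both groups.

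**Figure D2:**
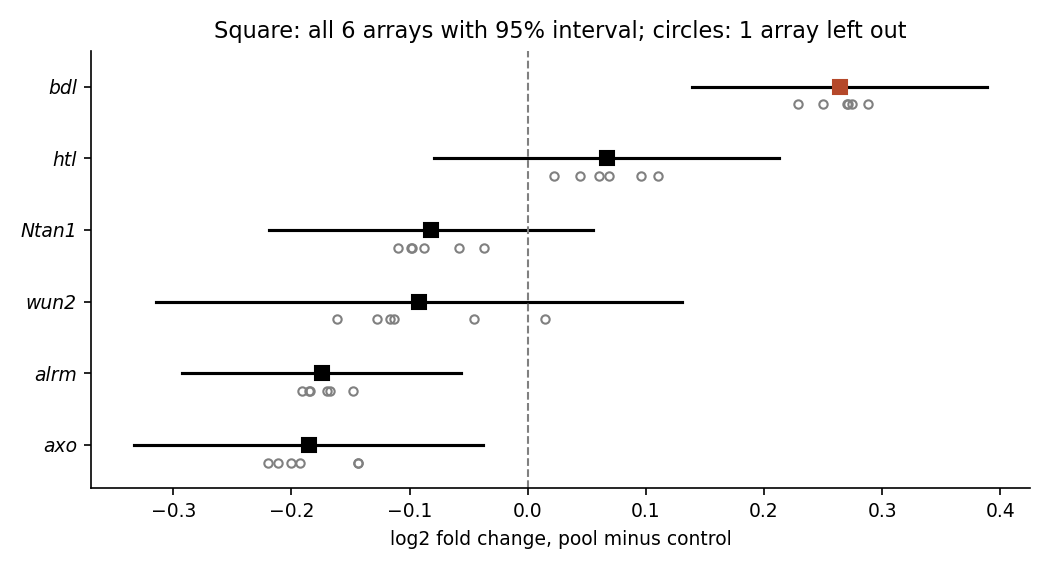
Log2 fold change, pool minus control (horizontal axis), of each of the 6 genes (rows) with its 95% interval; circles give the value with 1 array left out. The red square is bdl, the gene that passed; the intervals of alrm and axo lie below 0, and those of wun2, Ntan1 and htl include 0.

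The 6 genes did not share a direction. Differences were positive for bdl and htl and negative for the other 4, with a median of -0.09, against -0.0009 over all named genes. The sign was the same with any 1 array left out for alrm, axo, htl, Ntan1 and bdl, and wun2 was the exception. Taking the difference between 2 genes within each array removes any shift common to that array. Pairs that share bdl largely restate its own difference and are given as values only. The log2 signal of alrm minus that of bdl was 0.38, 0.49 and 0.50 on the pool arrays, against 0.86, 0.84 and 0.97 on the control arrays, a change of -0.44. For axo minus bdl the change was -0.45, for wun2 minus bdl -0.36, for Ntan1 minus bdl -0.35 and for htl minus bdl -0.20. Of all 15 pairs, 8 had separate groups. The share over all gene pairs of the array was not computed, and the pairs reuse the same 6 genes. The count is therefore a description only. Among pairs without bdl, those with separate groups were alrm minus htl (-0.24), axo minus htl (-0.25) and axo minus Ntan1 (-0.10), where the htl row is dim. The pair of alrm and axo overlapped between groups, with a change of 0.01.

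Both ligand genes of the Heartless receptor rose in the pool, while the dim receptor row did not pass. Whether the ligand changes differ from that of htl was not tested. The pyr gene, which encodes Pyramus, read 9.49, 9.58 and 9.58 in the pool, against 9.24, 9.30 and 9.16 in the control. All 3 pool values were above all control values. The log2 difference of 0.32 (standard error 0.059) equals 1.25-fold (limma adjusted p = 0.0308). The ths gene, which encodes Thisbe, read 9.52, 9.50 and 9.55 in the pool, against 9.25, 9.23 and 9.32 in the control. These groups were also separate, and the log2 difference of 0.26 (standard error 0.051) equals 1.19-fold (limma adjusted p = 0.0406). Neither ligand gene passed when any 1 array was left out (adjusted p up to 0.118 for pyr and 0.147 for ths, differences of 0.28 to 0.35 and of 0.24 to 0.28). The ths call was also lost after quantile normalization (adjusted p = 0.0515) and with arrays centred on their medians (0.130).

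The 2 ligand genes are direct neighbours in the RefSeq gene order of the Release 6 plus ISO1 MT assembly, with 0 genes between them. Of the 5 nearest genes with a row on each side, a set looked up after the ligand values were seen, 0 of 10 passed in limma. This compares with 2.9% of all rows. An unadjusted p was under 0.05 for 3 of the 10, against 1885 of 13346 named genes. Groups were separate for CG13197, wal and CG13193, against 21.5% of all rows. The log2 fold changes of the 10 genes ran from -0.12 to 0.19 with a median of 0.02.

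**Figure D3:**
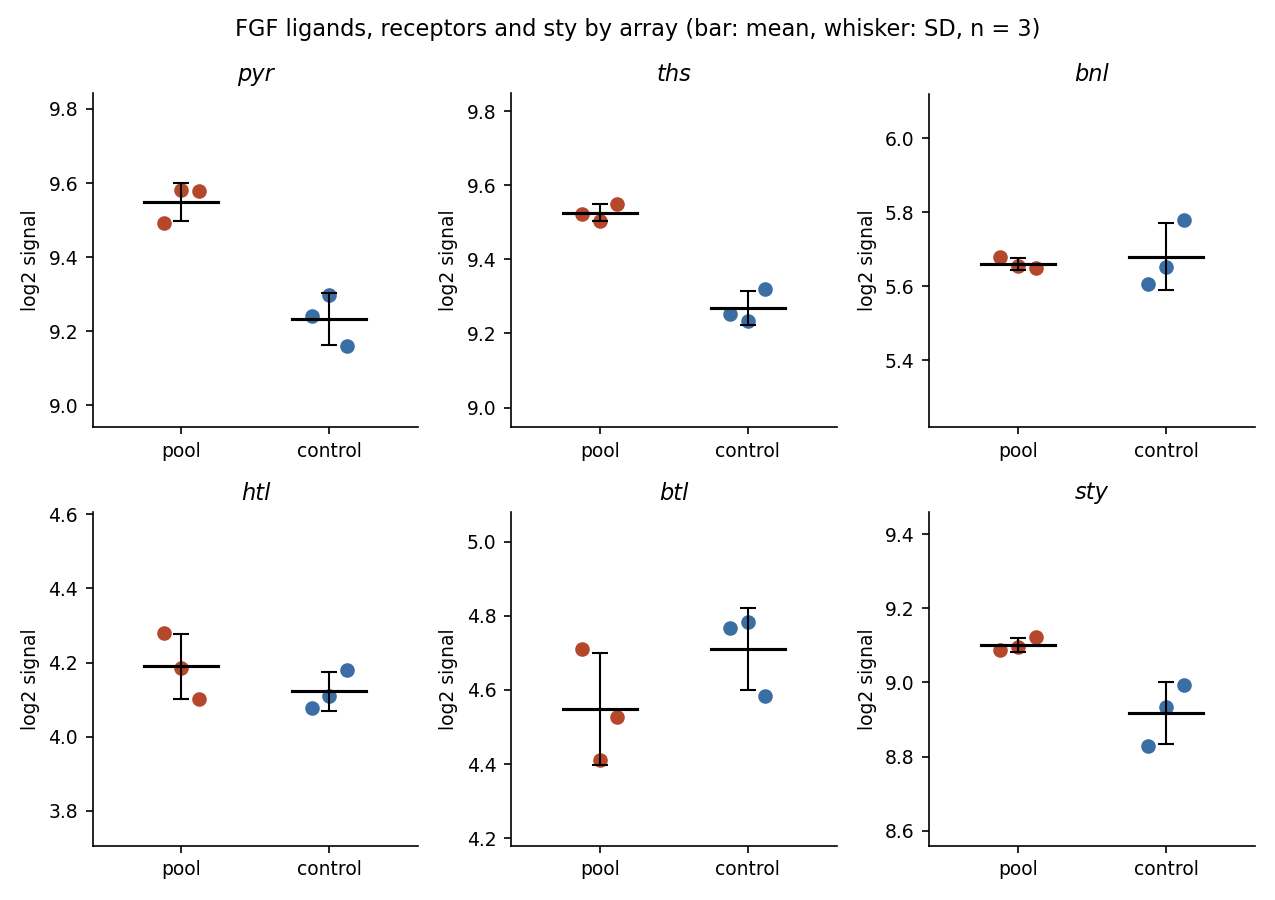
Log2 signal (vertical axis) of the FGF ligand genes pyr, ths and bnl, the receptor genes htl and btl and the feedback inhibitor gene sty on the 3 pool arrays (left, red) and 3 control arrays (right, blue), with mean and SD. The pool lies above the control for pyr, ths and sty, and the groups overlap for bnl, htl and btl.

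In the rest of the FGF pathway no gene passed. Of 12 measured pathway genes besides htl, 2 rose and 0 fell, against 1.65% and 1.24% of rows, and the list's median was 0.02. The third FGF ligand gene bnl, which encodes Branchless, the ligand of the tracheal receptor Breathless, read 5.68, 5.65 and 5.65 in the pool, against 5.61, 5.65 and 5.78 in the control. Its receptor gene btl was dim, at 4.71, 4.41 and 4.53 in the pool, against 4.77, 4.78 and 4.58 in the control. The gene sty, which encodes Sprouty, an inhibitor induced by FGF signalling, read 9.09, 9.10 and 9.12 in the pool, against 8.83, 8.93 and 8.99 in the control. Its groups were separate with a log2 fold change of 0.18 (limma adjusted p = 0.179). The adaptor gene drk also had separate groups, at 0.13 (limma adjusted p = 0.264). The differences of csw, Sos, Dsor1, ksr, cnk and aop, which act between the receptor and transcription, lay between -0.10 and 0.05, and their groups overlapped. Heparan sulfate chains assist FGF binding, and of 10 measured genes for these chains and their core proteins 0 passed in limma, with 0 also at an unadjusted p under 0.05. The members of smallest p in that list were the sulfotransferase gene sfl at 0.14 (adjusted p = 0.359) and botv at -0.18 (0.450). The pathway genes stumps, Gap1, Ras85D, phl, rl and pnt were not analysed here.

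Relatives and partners of the other genes mostly did not pass. Of 7 measured lipid phosphate phosphatase genes besides wun2, 0 passed in limma, with 0 also at an unadjusted p under 0.05, and their median was 0.04. The close relative wun stood at 0.06 and CG11425, the largest difference, at -0.26 (adjusted p = 0.468). Of 11 neurexin, neuroligin and immunoglobulin adhesion genes 0 passed in limma, against 2.9% of all rows. An unadjusted p was under 0.05 for 3, against 1885 of 13346 named genes. In this list 9 differences were positive, and the median was 0.06. The gene of bdl's partner Turtle, tutl, read 8.77, 8.72 and 8.73 in the pool, against 8.75, 8.70 and 8.82 in the control, a difference of -0.02. The neuroligin gene Nlg4 stood at 0.23 (limma adjusted p = 0.192) and the contactin gene Cont at 0.14 (0.228), both with separate groups. Of 13 leucine-rich repeat surface genes 1 rose and 0 fell, against 1.65% and 1.24% of all rows. The gene that rose was kek4 of the kekkon family. It read 7.52, 7.33 and 7.51 in the pool, against 7.09, 6.99 and 7.07 in the control (limma adjusted p = 0.0227). Leaving out any array other than pool replicate 2 ended the kek4 call (adjusted p up to 0.0914). Of 7 N-degron pathway genes 0 passed in limma, with 0 also at an unadjusted p under 0.05. The conjugating enzyme gene Ubc6 stood at 0.11 (adjusted p = 0.476) and the recognition ligase gene Ubr1 at -0.06 (0.676).

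Of 7 other measured neuropil glia genes 1 rose and 0 fell, against 1.65% and 1.24% of all rows, and the median was 0.06. That gene was Obp44a, a binding protein gene, at 12.42, 12.36 and 12.38 in the pool, against 11.96, 11.94 and 11.97 in the control (log2 fold change 0.43, limma adjusted p = 0.00387). The glutamine synthetase gene Gs2 stood at -0.003, the GABA transporter gene Gat at 0.12 and the engulfment receptor gene drpr at 0.19 (limma adjusted p = 0.143). Eaat1, also listed as a neuropil glia gene, was not analysed here. Of 3 cortex glia markers 2 fell, against 1.24% of all rows. The log2 fold change was -0.47 for wrapper (limma adjusted p = 0.00299) and -0.42 for zyd (0.0149). Leaving out any array other than control replicate 3 ended the zyd call (adjusted p up to 0.0673). Of 5 surface glia markers 0 passed in limma, against 2.9% of all rows. An unadjusted p was under 0.05 for 3 of them, against 1885 of 13346 named genes. Groups were separate for 4 of the 5, against 21.5% of all rows, and the list's median was 0.12. Gli stood at 0.25 (limma adjusted p = 0.177), moody at 0.20 (0.134), Tret1-1 at 0.12 (0.383), Indy at -0.04 (0.810) and Mdr65 at -0.20 (0.144). Of 5 pan-glial markers 0 passed in limma, with a median of -0.07, and 2 had an unadjusted p under 0.05. These counts compare with 2.9% of all rows and with 1885 of 13346 named genes. The glial gene repo read 7.77, 7.88 and 7.80 in the pool, against 8.03, 8.00 and 7.95 in the control. It did not pass (log2 fold change -0.18, limma adjusted p = 0.162). The other named gene of that list, gcm, stood at -0.18 (limma adjusted p = 0.207). Its row was dim, with means of 4.23 in the pool and 4.41 in the control, near the lower quartile of 4.23. The gcm2 row of the same list was dimmer, at 3.99 in each group.

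**Figure D4:**
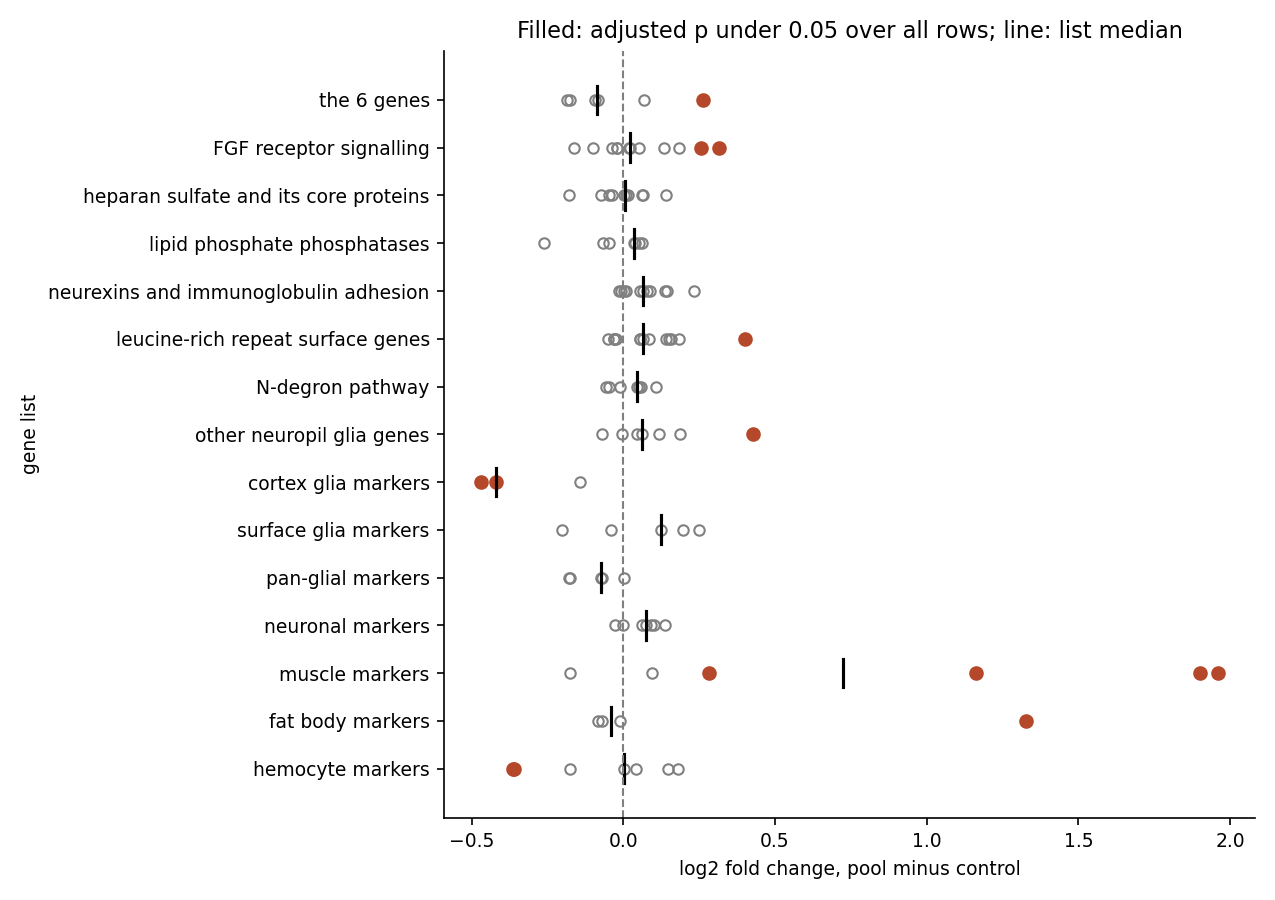
Log2 fold change, pool minus control (horizontal axis), of every measured gene in each list (rows); filled points passed an adjusted p of 0.05 over all rows and lines mark list medians. The 6 neuropil glia genes are in the top row; pyr and ths are the filled points of the FGF list, and muscle markers reach 1.96.

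Markers of tissues outside the neuropil also differed between the same groups. Each count of markers that rose or fell compares with 1.65% of all rows higher and 1.24% lower in the pool. Of 6 measured muscle markers 4 rose, with Act88F at 1.96 (limma adjusted p = 7e-06), fln at 1.90, TpnC4 at 1.16 and up at 0.28, but they did not all move together. Dropping any single array ended the call of up (adjusted p up to 0.0954), while Mlc2 stood at 0.10 and sls at -0.17, neither past the test. Summed over the 6 markers, the linear signal was 9432 to 9709 in the pool and 7651 to 7868 in the control. Without the 4 that rose, a sum added after seeing the data as are those below, it was 6901 to 7203 in the pool and 6458 to 6756 in the control. Of 4 fat body markers Lsp2 rose at 1.33 while the other 3 lay between -0.08 and -0.01, and their summed signal was 13230 to 13620 in the pool and 11190 to 11240 in the control. Without Lsp2 the order turned, at 8981 to 9344 in the pool and 9443 to 9560 in the control. Of 7 hemocyte markers PPO1 and PPO2 fell, both at -0.36, and the sums were 2275 to 2355 in the pool and 2669 to 2735 in the control. The other 5 did not pass. Among them Hml stood at -0.17 with separate groups (limma adjusted p = 0.134), NimC1 at 0.18 and Col4a1 at 0.15. The list's median was 0.002. Without the 2 that fell, the sums of 938.2 to 986.1 in the pool and 940.3 to 996.2 in the control overlapped. Of 7 neuronal markers 0 passed in limma, with 0 also at an unadjusted p under 0.05. They included elav at 0.14 and CadN at 0.10, and the summed signals of 6745 to 7275 in the pool and 6505 to 7069 in the control overlapped. Within the glia, summed signal of the 7 other neuropil glia genes was 16320 to 17050 in the pool and 14990 to 15400 in the control. Without Obp44a these sums overlapped, at 11080 to 11570 in the pool and 11000 to 11390 in the control. The list holds nrv2, an RNA interference target of 1 pooled line, at -0.07. Pan-glial marker sums were 1071 to 1097 in the pool and 1136 to 1172 in the control. Inx2 made up most of the pan-glial sum, and its own groups overlapped (log2 fold change -0.07, limma adjusted p = 0.584). Cortex glia sums were 957.8 to 1027 in the pool and 1111 to 1145 in the control. Most of the cortex glia sum was the Cyp4g15 signal, which did not pass, at 764.0 to 830.9 in the pool and 866.2 to 877.9 in the control. Surface glia sums of 1772 to 1862 in the pool and 1752 to 1819 in the control overlapped. Their part in the values of bdl, alrm, axo, pyr and ths was not tested.

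The genes whose array-to-array pattern was most like each of the 6 were found by Pearson correlation of log2 signals over the 6 arrays, among 9940 genes above the dimmest 25%. With 6 arrays many genes reach a high value, so the correlations are a description of these arrays, which also share each group's shift. The closest to alrm were the stress peptide gene TotC (r = 0.998) and Coq8 (0.995), and 88 genes exceeded 0.95. TotC stood at -0.78 and Coq8 at -0.32 between groups. The TotC row was dim in the pool, with a mean of 4.35 near the lower quartile of 4.23, against 5.12 in the control. The closest to bdl were CG1909 (0.997) and Cont (0.996), with 159 genes above 0.95. For axo they were fau (0.993) and Tmem18 (0.991), with 42 above 0.95. The closest to Ntan1 were Hydr2 (0.994) and CG15922 (0.987), to wun2 Nup107 (0.990) and La (0.982), and to htl su(f) (0.988) and CG7079 (0.988). Fewer genes exceeded 0.95 for these, at 27 for Ntan1, 13 for wun2 and 16 for htl. Among the 6 genes themselves, axo and Ntan1 had the highest correlation (r = 0.901), and alrm and bdl the most negative (-0.946).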

How the data were processed

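Per the submitters' processing notes the authors used Affymetrix Expression Console. Its version, its normalization and the build were not given in the sources used here. On a log2 scale, inferred from the range of 3.20 to 14.02, the values were analysed as the authors deposited them. Rows were named through the platform's annotation, updated from RefSeq (144 symbols), giving 13441 rows with 1 symbol. Where a gene had several rows, the brightest was used.

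All rows were fitted, pool against control and two-sided, by lmFit and eBayes of limma 3.58.1 in R 4.3.3. Figures used matplotlib 3.10.9. On simulated arrays of 16322 rows with 200 changed, 24% of changes of 0.3 log2 and 82% of changes of 0.585 log2 were called. Each size had 50 changed rows, and 11 unchanged rows were also called. Spreads were shuffled among the simulated rows. The rates are therefore averages over rows and need not hold for rows of small spread, such as alrm and bdl.

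The 6 genes, the 14 lists and the tests were chosen with earlier results of these data known. Besides the FGF pathway genes named above and Eaat1, the listed genes sotv, dally, Fas2, Fas3, kek6, Toll-6, Syt1, Mhc, plin1, to and srp were not analysed. Named genes are the 6, up to 4 that passed in each list by size (otherwise up to 2 of smallest p) and the 2 most correlated with each of the 6. Genes of the figures, tutl, wun, drk and others given for their role or to complete a list were named after their values were seen. Alternatives covered normalization, centring, dim rows, rows tested, the replicate block, each array left out, the variance prior, array weights and rows per gene. The array number limits the precision.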

Additional observations from a re-analysis of the deposited data

How the results depend on the processing

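The signs of alrm, axo, htl, Ntan1 and bdl held under every alternative that gave a value, and htl gave none with dim rows left out. The difference of wun2 was -0.16 to 0.014 with 1 array left out, positive without control replicate 1. The bdl difference of 0.26 lost its call with arrays centred (0.23, adjusted p = 0.0750) and with the replicate block (0.26, adjusted p = 0.111), and was 0.23 to 0.29 without 1 array. Trend and robust settings called alrm (-0.17, adjusted p = 0.0176), so 2 of the 6 genes passed, against 0 with arrays centred, 0 with the replicate block and 0 without any 1 array. Called rows numbered 312 with the replicate block, 861 with trend and robust settings and 218 to 312 without 1 array, against 473. Called genes in the lists numbered 8 to 9 without 1 array, against 13. Leaving out an array lowers the residual degrees of freedom from 4. Replicate numbers gave deviations correlated at -0.01, -0.005 and 0.09 between same-numbered arrays, against -0.07 to 0.08 between other arrays of the 2 groups. These values gave no sign that the numbers pair the arrays, but so few arrays cannot exclude it. With the block the pyr (adjusted p = 0.0824), ths (0.105) and up (0.0839) calls were lost, and centring ended that of up (0.0605).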
